A study of Mus musculus with 4 samples.

Results

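N6-methyladenosine (m6A), a common internal modification of messenger RNA, was mapped in mouse macrophages with and without Mettl3, the gene of its main methyltransferase, and the residual map of the knockout cells is described here. It consists of every peak in the list that the authors called by setting the immunoprecipitated library of the knockout cells against their input library. That list holds 21031 peaks, of 37740 peaks in the lists of both genotypes, and the authors assigned them to 11675 genes. The cells were bone-marrow-derived macrophages of C57BL/6 mice, cultured for 7 days with macrophage colony-stimulating factor. All groups carried Mettl3 alleles flanked by loxP sites (Mettl3 fl/fl). The control cells, called WT, had no other stated change, and the knockout cells, called KO, were LysM-cre, Mettl3 fl/fl. In LysM-cre mice the Cre recombinase is made from the lysozyme 2 gene, which is active in cells of the myeloid lineage, so other cells of a culture keep Mettl3. The age and number of the mice are not given. For each genotype there was 1 immunoprecipitated (IP) library and 1 of its input, which makes 4, and no value below has a replicate check. The read depth is unknown, since no total of reads stands in these files.

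The complex that writes m6A on new transcripts has METTL3 as its catalytic subunit and METTL14 as its RNA-binding partner, and WTAP, VIRMA, ZC3H13, CBLL1 and the RBM15 proteins place it on RNA. Its marks lie mainly near stop codons and in 3′ UTRs, proteins with a YTH domain read them and speed the decay or alter the splicing of the transcript, and FTO and ALKBH5 can remove them. Other enzymes make the same or a related mark: METTL16 acts on U6 RNA and on the transcript of Mat2a, METTL5 and ZCCHC4 act on ribosomal RNA, and PCIF1 makes m6Am, a mark on an adenosine next to the cap that antibodies against m6A also bind. In m6A-seq, poly(A) RNA is fragmented and precipitated with such an antibody, and a peak is a stretch of exon with more IP than input reads. The fold of a peak is the authors' own ratio of IP over input and serves here only to describe and rank peaks within the KO list. Each peak also has the authors' p, which compares the reads of 2 libraries, and a false discovery rate (FDR), the share of false peaks expected at that p. A KO peak is called shared when it has at least 1 exonic base in common with a peak of the WT list, and unshared otherwise.

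Mettl3 itself had 1 KO peak, in its 3′ UTR at chr14:52296090-52296658 (mm10, the GRCm38 build), with a fold of 1.35 and an FDR above 0.05, and no WT peak. A peak list does not measure how much of a transcript is present, and how much Mettl3 RNA the input held was not analysed here, so these values do not check the deletion.

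The 5′ UTR peaks of the KO list were examined at the start of the transcript, where the capped first base lies. Shown here are the starts under the 5 KO 5′ UTR peaks of lowest p among those that cover a RefSeq start, and that of Irf2bp1, the next one in that order whose first base is A after Capns1. Each line gives 10 bases before the start, the first transcribed base in capitals and 19 bases after it, 5′ to 3′, from RefSeq on GRCm38.p6.
Ppp1r9b, chr11:94991202-94991231, plus strand: tggccgctgcTtcgcgggctgggcgcgcgg
Senp3, chr11:69682065-69682094, minus strand: agcgagccgtGggactgccacacgcggcaa
Capns1, chr7:30195134-30195163, minus strand: cgcagtctgcAatggaggctctaggaccgc
Arl11, chr14:61309743-61309772, plus strand: tgagacacacCcccaatatgggaggatgtc
Gnb1, chr4:155491351-155491380, plus strand: gaggctgcggGcaggggccgccgcgcccat
Irf2bp1, chr7:19004048-19004077, plus strand: cctctggggcAgaagaaggaggtggaggcg
The folds of these peaks were 13.2 for Ppp1r9b, a scaffold of protein phosphatase, 53.3 for Senp3, a SUMO protease, and 138 for Capns1, the small subunit of calpain. They were 6.95 for Arl11, a small GTPase, 6.24 for Gnb1, a G protein subunit, and 19.8 for Irf2bp1, a corepressor. All 6 peaks were shared with WT, as were 61.6% of all KO peaks and 94.4% of those with a p of at most 1e-10. Among the 5 peaks of lowest p only that of Capns1 lay over a first base of A, since Irf2bp1 was taken for its A.

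The first bases were counted over all starts covered by a peak. The 2160 KO 5′ UTR peaks covered 855 RefSeq starts of 754 genes. The first base was A at 26.5% of these starts (23.6 to 29.6, exact Clopper-Pearson binomial interval at 95%, counting error only) and G at 52.0% (48.6 to 55.4). Among the 9816 RefSeq starts of all genes with a KO peak, 29.3% began with A (28.4 to 30.2), and among all 32851 RefSeq starts of the table, 34.4% did. The share of A at the covered starts was thus not above that of the other starts. Within the first 50 bases, read on the sense strand, GGACT, a form of the known m6A motif, was present at 5.03% of the covered starts (3.66 to 6.71) and at 5.25% of all starts of genes with a KO peak. GGACC stood at 5.96% and 5.95% and AAACA at 1.64% and 2.53%. A RefSeq start is an annotated position and need not be the base at which these macrophages begin the transcript.

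Most 5′ UTR peaks reached the transcription start to which the authors measured their distance. Of the 2160, 1635 (75.7%, 73.8 to 77.5) spanned it, with a median fold of 4.71 and 74.3% shared. The 155 peaks that began within 200 bases downstream had a median fold of 2.23, and the 306 farther downstream had 2.66. In the WT list 79.1% of 5′ UTR peaks spanned the start. Among the 5′ UTR peaks of highest fold, with 1 peak per gene, were those of Kctd1, a transcriptional regulator, at 381, of the histone demethylase Kdm3b at 142, of Capns1 at 138, of the G protein subunit Gng2 at 112 and of the GTP-binding protein Gtpbp2 at 110. Those of Itpr1, a calcium channel of the endoplasmic reticulum, and of the telomere protein Terf2 stood at 89.7 and 66.1. All 10 genes taken by this rule had a shared 5′ UTR peak.

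Several microRNA hairpins lie inside exons that carried KO peaks. Of 1005 mouse hairpins in the RefSeq table, 37 shared a base with a KO peak and 21 lay wholly within one. Of these 21, 20 lay in a peak with an FDR under 0.05, which 64.9% of all KO peaks had, and 18 of the 20 in a peak shared with WT. The mature sequences below, from RefSeq on GRCm38.p6 with the seed (bases 2 to 8) in capitals, belong to hairpins inside strong KO peaks of transcripts known in macrophages or of widely expressed genes.
mmu-miR-671-3p, chr5:24592171-24592191, plus strand: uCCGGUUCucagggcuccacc
mmu-miR-671-5p, chr5:24592132-24592154, plus strand: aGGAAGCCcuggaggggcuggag
mmu-miR-8115, chr5:122682664-122682685, plus strand: cCGCAAUAgcaacaagggcucu
mmu-miR-5130, chr14:102982608-102982631, minus strand: cUGGAGCGcgcgggcgaggcaggc
mmu-miR-2861, chr2:32712819-32712837, minus strand: gGGGCCUGgcggcgggcgg
No 2 of these 5 share a seed. Mir671 lies in Chpf2, an enzyme of chondroitin synthesis, under a peak of fold 8.75. Mir8115 lies in P2rx7, the receptor for extracellular ATP that drives inflammasome activation, under a peak of fold 5.24, Mir5130 in Kctd12 under 3.23, and Mir2861 in Cdk9, a kinase of transcription elongation, under 4.21. Each of these peaks is far longer than the hairpin, so it does not show where within the host exon the antibody bound. A further shared peak, of fold 5.38, was listed over exactly the 98 bases of the Mir671 hairpin, inside the longer Chpf2 peak.

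By the authors' annotation, 3′ UTRs held 13477 of the KO peaks (64.1%), 5′ UTRs 2160 (10.3%) and other exons 5394 (25.6%). A single label is given even where a peak also covers other parts of the transcript. The median fold was 3.15 over all KO peaks. It was 2.95 (order-statistic interval over peaks 2.95 to 3.03) in 3′ UTRs, 3.78 (3.54 to 4.10) in 5′ UTRs and 3.54 (3.28 to 3.54) in other exons. Among other exons the 2615 peaks in internal exons were weakest, with a median of 2.53. The first exon (4.72), the last exon (3.84) and the only exon of an annotated transcript (5.90) had higher medians. Without predicted, Rik, pseudogene and microRNA names these 3 medians were 3.54, 3.54 and 5.90, and 248 of 899 peaks in an only exon remained. Of all KO peaks, 40.5% had a fold of at least 4, 64.9% an FDR under 0.05 and 24.5% a p of at most 1e-10. The 3′ UTR held 75.6% of the 5143 peaks with a p of at most 1e-10 and other exons 14.0%. Among peaks with a fold of at least 4 the 3′ UTR share was lower than in the whole list, 59.7%. Peaks spanning several exon blocks made up 32.7% of the list and had a median fold of 4.39, against 2.76 for peaks of 1 block.

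**Figure D1:**
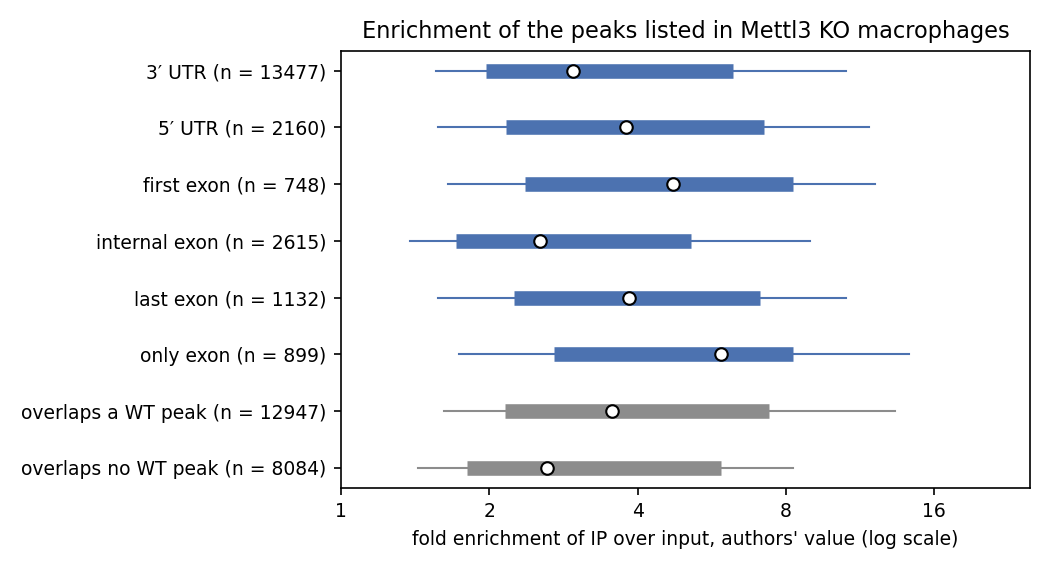
Authors' fold enrichment of IP over input (log scale) for KO peaks by part of the transcript and by overlap with WT peaks. Circles are medians, thick bars the middle 50% and thin lines the range from the 10th to the 90th percentile of peaks. Internal exons have the lowest median (2.53) and the only exon of an annotated transcript the highest (5.90).

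Fold values fell on steps, which bears on these medians. In the KO list 5245 peaks (24.9%) had a fold equal, after rounding to 3 significant digits, to a whole multiple of 1.1808, from 2 to 13 times, and the commonest value, 7.08, was printed for 1102 peaks. Peaks on these steps passed an FDR of 0.05 in 38.0% of cases, against 73.8% for the rest, and were shared in 47.1%, against 66.4%. Where an input level is given in the authors' deposited table, it had a median of 3.25 FPKM for genes of stepped peaks and 6.56 FPKM for the others (FPKM is a transcript level scaled to length and library size). Without the stepped peaks the median fold was 2.56 in 3′ UTRs, 2.76 in 5′ UTRs and 2.37 in other exons, so the order of 3′ UTRs and other exons turned. The larger share of high folds in weakly expressed genes was also seen by level: from the lowest to the highest of 5 equal classes of the 4294 genes listed in the authors' deposited table by KO input, the median fold was 4.13, 3.54, 2.89, 2.61 and 2.14.

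The KO peaks of lowest p lay on highly expressed macrophage transcripts, all at the position of a WT peak. The authors labelled all of them 3′ UTR, but the label does not confine a peak to that part. Those of Jun, Tnfaip8l2, Nceh1, Mcl1 and Rhob also reached the transcription start. First came Lpl, the lipase that macrophages secrete to release fatty acids from lipoproteins, with a fold of 27.9 and a log10 p of -59800. Jun, a subunit of the transcription factor AP-1, followed with a fold of 58.4, and Tnfaip8l2, a brake on immune signalling, with 19.1. The receptor for the complement fragment C3a, C3ar1, had a peak of 8.71 and the platelet-activating factor receptor Ptafr one of 12.6. A peak of 11.7 that the authors assigned to Vps13d lies in Tnfrsf1b, a receptor for tumour necrosis factor. Nceh1, a hydrolase of cholesterol esters, stood at 10.8, the survival factor Mcl1 at 6.01 and the small GTPase Rhob at 18.1. For peaks that differed between genotypes at a p under 0.05, the authors' deposited table has a log2 ratio, with the enrichment in KO set over that in WT, and the peak of Lpl stood at 0.12. That of Jun stood at -0.16, that of Tnfaip8l2 at -0.55 and that of C3ar1 at -0.39 in the authors' deposited table. The 10 peaks of lowest p all overlapped an entry of the authors' deposited table, 9 of them lower in KO.

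The highest folds had a different makeup. Among peaks with a p of at most 1e-10, with 1 peak per gene and predicted (Gm), Rik and pseudogene names left out, Dhx9, an RNA helicase, led with 2940 in its 3′ UTR, followed by Rpl7a, a protein of the large ribosomal subunit, with 1220. Next were Zbed4 with 403, the 5′ UTR peak of Kctd1 with 381, the Polycomb-associated Rybp with 329 and a peak assigned to Il6ra, a receptor for interleukin 6, with 324, which lies outside every RefSeq gene. Capns1 (263), Vkorc1l1 (221), Fam98b (178) and the secreted bone morphogenetic protein antagonist Grem1 (172) completed the list. All but that of Rpl7a were shared with WT. These values carry no error. The predicted genes left out reached folds of up to 549. In other exons, under the same limits, the highest folds after Capns1 belonged to Galnt7, which starts mucin-type glycosylation (87.4), the lysosomal channel Mcoln3 (64.6), the chromatin remodelling subunit Smarce1 (62.6, unshared) and the zinc finger gene Zxda (55.5).

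Of the 21031 KO peaks, 12947 (61.6%) were shared with WT and 8084 were not. Shared peaks were longer and stronger, with a median exonic length of 451 bases and a median fold of 3.54, against 211 bases and 2.62. An FDR under 0.05 was reached by 80.5% of shared and 39.8% of unshared peaks. Length separated them more than fold did, but the definition of a shared peak favours long peaks. Any common exonic base is enough, so a longer peak meets a WT peak more easily. How much of the difference by length comes from this rule was not tested. From the shortest to the longest of 5 equal classes, 32.3%, 46.8%, 63.2%, 77.9% and 87.5% were shared, and from the lowest to the highest class of fold 49.3%, 57.7%, 64.2%, 61.6% and 75.0%. Peaks in 5′ UTRs were shared most often, 72.8% (70.8 to 74.6), against 61.0% in 3′ UTRs and 58.4% in other exons. The difference was widest among weak peaks: in the lowest class of fold 64.3% of 5′ UTR peaks and 46.0% of 3′ UTR peaks were shared, and in the highest class 80.0% and 77.6%. Of the 5143 KO peaks with a p of at most 1e-10, 94.4% were shared.

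**Figure D2:**
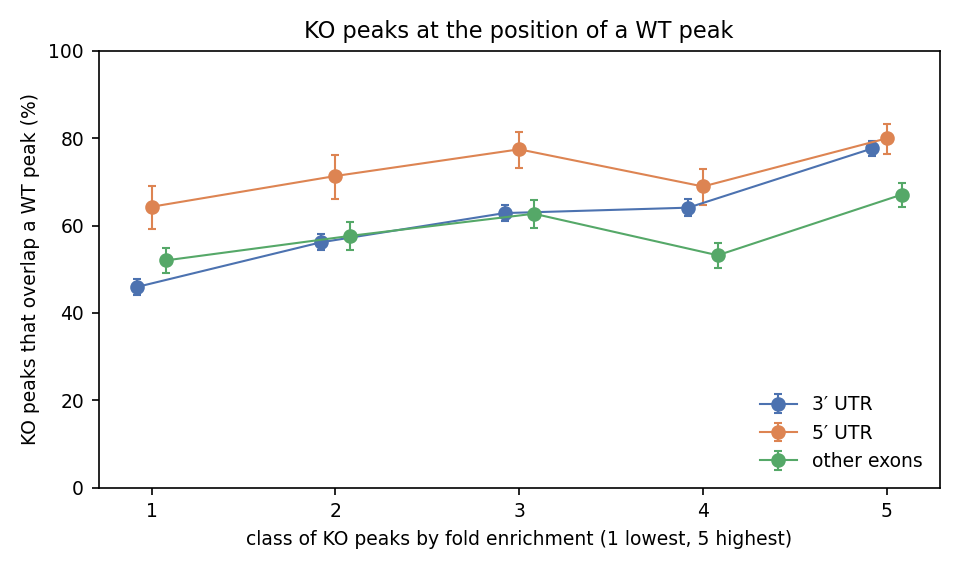
Share of KO peaks (%) that overlap a WT peak, in 5 equal classes of KO peaks by the authors' fold, for 3′ UTRs, 5′ UTRs and other exons. Bars are exact 95% binomial intervals, which cover counting error only; 5′ UTR peaks are shared most often in the lowest class (64.3%), and in the highest class 3′ UTR and 5′ UTR peaks reach 77.6% and 80.0%.

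Peaks that appeared only in the KO list, taken at an FDR under 0.05, concentrated in 3′ UTRs. Of these 3220 unshared peaks, 78.2% (76.8 to 79.6) lay in a 3′ UTR, 4.53% in a 5′ UTR and 17.2% in another exon. Among the 10419 shared peaks at that FDR the shares were 67.2%, 11.8% and 21.0%. The unshared peaks were also weak, with a median fold of 2.36 and a median exonic length of 241 bases. No replicate shows how often a peak of this kind would be called in 1 of 2 libraries of the same genotype.

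Their position within the 3′ UTR differed as well. For 9486 KO 3′ UTR peaks that lie in their assigned gene, the distance from the 3′ edge of the peak to the 3′ end of the gene in RefSeq could be measured. The edge lay within 50 bases of the gene end for 892 of 1672 unshared peaks at an FDR under 0.05 (53.3%, 50.9 to 55.8), with a median distance of 4 bases. It did so for 33.4% (32.1 to 34.7) of 5153 shared peaks, whose median distance was 613 bases. For the 520 unshared 3′ UTR peaks of the WT list at the same FDR the share was 16.5%, with a median distance of 1346 bases. Unshared peaks of KO thus ended at the gene end more often than shared ones, and those of WT less often.

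The share at the gene end also moved with transcript level. In each of the 5 classes of KO input level in the authors' deposited table the unshared peaks lay at the gene end more often than the shared ones, with 31.7% against 15.9% in the lowest class and 65.2% against 51.5% in the highest. Peaks that the authors' deposited table lists as higher in KO ended within 50 bases of the gene end in 62.3% of 1165 cases, and those it lists as lower in 20.3% of 2149. In the authors' deposited table the median input level of the genes was 18.5 FPKM for the higher and 6.47 FPKM for the lower of these peaks.

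**Figure D3:**
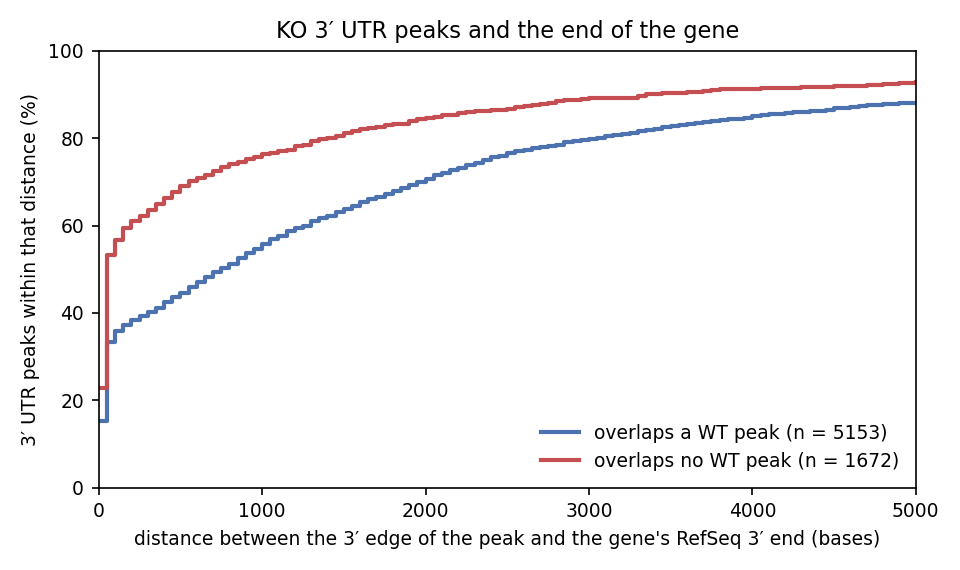
Cumulative share (%) of KO 3′ UTR peaks at an FDR under 0.05 whose 3′ edge lies within a given distance (bases) of the RefSeq 3′ end of the gene, for 1672 peaks that overlap no WT peak and 5153 that do. At 50 bases the curves stand at 53.3% and 33.4%.

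The same arrangement was seen inside single genes, where both peaks are assigned to the same gene. The levels of separate transcript forms within a gene were not measured. In 110 genes with 3′ UTR peaks of both directions in the authors' deposited table, the higher one ended farther downstream in 99 (90.0%, 82.8 to 94.9). The median signed distances to the gene end were 0 and 1707 genomic bases. A peak that runs past the gene end has a negative distance and counts as farther downstream, however far out it lies. In 375 genes with both an unshared and a shared peak at an FDR under 0.05, the unshared one ended farther downstream in 283 (75.5%, 70.8 to 79.7). Here the medians were 23 and 1375 bases. In Sirpa, an inhibitory receptor that recognises CD47, a shared peak of 2.99 ended 988 bases before the gene end, and an unshared peak of 2.36 reached the end. The 3′ UTR of the transcription factor Klf6 carried peaks of 2.39, 1.17 and 1.61 at 5278, 3075 and 2418 bases from the gene end and 1 of 3.96 at the end. The authors' deposited table gives log2 ratios of -0.30 and 0.62 for the inner and outer peaks of Sirpa, and 0.40 for the outer peak of Klf6.

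The unshared 3′ UTR peaks of lowest p named abundant housekeeping and macrophage transcripts. Fth1, the heavy chain of ferritin, had a peak of fold 1.42 that ended 13 bases from the gene end, at an input level of 3530 FPKM in the authors' deposited table. Gpx4, which detoxifies lipid peroxides, had one of 4.25 that ended at the gene end, and its log2 ratio in the authors' deposited table was 2.08. Peaks of Selenop, a selenium carrier (1.47), of Rplp1, a protein of the ribosomal stalk (1.59), and of Myl6, a myosin light chain (1.86), ended within 2 bases of the gene end. Not all did: the peak of Psap, the precursor of the lysosomal saposins (1.27), ended 212 bases before it, that of Itm2b (1.34) 683 bases and that of the cold-inducible RNA-binding protein Rbm3 (7.60) 2214 bases before it. The 3′ UTR peaks of lowest p in the whole list included both kinds, since those of Jun, Tnfaip8l2 and Rhob reached the gene end and those of C3ar1, Ptafr and Nceh1 ended 1941, 1401 and 2645 bases before it.

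A gene was counted as newly marked where the KO list named it and the WT list did not. This held for 3160 genes, 24.2% of the 13035 genes named in either list and 27.1% of the KO genes, while 8515 KO genes also had a WT peak. Most newly marked genes had little evidence: 2537 had a single peak, 1586 (50.2%) had a peak with an FDR under 0.05, and 301 had a KO peak on top of a WT peak that had been assigned to a neighbouring gene. Only 950 had a peak inside the gene itself with an FDR under 0.05 and no such peak shared with WT. Predicted genes, Rik clones, pseudogenes and microRNA entries made up 32.2% of the newly marked genes, against 19.6% of the genes with peaks in both lists. Of genes with peaks in both, 2721 had more peaks in KO, 4336 the same number and 1458 fewer.

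Among unshared peaks of highest fold, Rpl7a (1220) was followed by Smarce1 (62.6), by Tulp4, a candidate ubiquitin ligase adaptor (41.3), and by Sumo2, a ubiquitin-like modifier (37.8). Cflar, which blocks caspase-8 in cell death signalling, had one of 31.9 in a last exon, the translation factor Eif3j1 one of 30.7 and the splicing regulator Hnrnpa3 one of 23.6. The authors' deposited table lists the peaks of Rpl7a at a log2 ratio of 5.70, of Sumo2 at 5.59, of Cflar at 4.63, of Tulp4 at 3.59 and of Eif3j1 at 2.31. Among genes absent from the WT list, high folds were held by Rpl7a, the centriole protein gene Stil (122), the collagen gene Col8a1 (49.6) and Sumo2. The peaks of Stil and Col8a1 overlapped WT peaks assigned to other genes, so these 2 genes were new by name only.

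Over differential peaks the KO list leaned lower. Of 6139 KO peaks that overlapped differential peaks of 1 direction in the authors' deposited table, 4284 (69.8%) were lower in KO, close to the 69.6% of the table as a whole. The share was 94.5% (92.3 to 96.2) in internal exons, 87.8% in 5′ UTRs and 62.9% in 3′ UTRs in the authors' deposited table. By length, the share that was lower had no single direction: it was 71.6% in the shortest of 5 classes, 34.9% in the second and 94.4% in the longest. All 617 unshared KO peaks that overlapped an entry of the authors' deposited table were higher there, but they had been chosen for lacking a WT peak.

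All 8 genes of the writer complex had a KO peak, and 6 of them, all but Mettl3 and Mettl14, also had a WT peak. Of 13 KO peaks in all, 11 (84.6%, 54.6 to 98.1) were shared, 11 had an FDR under 0.05 and 9 a fold of at least 4, where the shares over all KO peaks were 61.6%, 64.9% and 40.5%. Their median fold was 4.31, against 3.15 over all KO peaks. The writer peaks were also long, with a median exonic length of 898 bases, against 330 over all KO peaks. In the longest of 5 classes of KO peaks, from 841 bases, 87.5% were shared. In that class 84.3% had an FDR under 0.05 and 82.9% a fold of at least 4. Rbm15b, an adaptor that brings the complex to RNA, had overlapping 3′ UTR peaks of 21.8 and 16.5, and its relative Rbm15 a peak of 13.8 that covers much of the gene from the 5′ UTR and another of 3.66. Zc3h13, which holds the complex in the nucleus, had peaks of 10.3, 4.24 and 4.13. Virma, its scaffold, had peaks of 4.34 and 1.37, the ubiquitin ligase Cbll1 one of 4.31 and the regulatory subunit Wtap one of 3.63. Mettl14 had an unshared peak of 8.27 and Mettl3 the weak one given above. Of the 13 peaks, 9 overlapped a lower peak of the authors' deposited table and 0 a higher one, as 20.4% and 8.82% of all KO peaks did. Of the 8 writer 3′ UTR peaks, those of Wtap, Rbm15b and Cbll1 ended 7793, 3006 and 2332 genomic bases before the gene end. These were picked, and the distances of the other writer peaks are not given here, so the values do not stand for the complex.

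Other methyltransferases had fewer and weaker peaks. Pcif1, the cap-adjacent m6Am enzyme, had a 5′ UTR peak of 5.90 and a 3′ UTR peak of 2.29, both shared, while 3 further peaks assigned to it lie in Zfp335. Mettl4 had 3 unshared peaks (3.54, 2.53 and 1.97), of which only that of 2.53 had an FDR under 0.05. Mettl16 had 1 of 2.36 with an FDR above 0.05, and Trmt112, a partner of METTL5, a shared one of 1.60. Mettl5 had a WT peak only, and Zcchc4 had none. Mat2a, whose 3′ UTR hairpins METTL16 methylates and which makes the methyl donor S-adenosylmethionine, kept a shared 3′ UTR peak of 2.67, at a log2 ratio of 0.43 in the authors' deposited table. Elsewhere in the methyl donor cycle, 10 of 15 genes had a KO peak. Mthfd2, a mitochondrial enzyme of folate metabolism, had a 5′ UTR peak of 8.27.

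Among erasers and readers, 11 of 15 genes had a KO peak, with 27 peaks of which 15 (55.6%, 35.3 to 74.5) were shared. The median fold was 1.76, below that of the whole list. The reader of the nucleus, Ythdc1, had 8 peaks, from 1.32 to 8.66. The decay-promoting readers Ythdf3, Ythdf2 and Ythdf1 had their strongest peaks at 8.13, 4.21 and 2.39, all shared. Prrc2a had an unshared 3′ UTR peak of 10.6 and a shared exon peak of 6.28, and Ythdc2 unshared peaks of 9.45 and 7.08, of which the second had an FDR under 0.05. The eraser Fto had peaks of 4.49 and 1.56. The other eraser, Alkbh5, had 1 of 1.56, Igf2bp2 1 of 1.56 and Fmr1 1 of 10.6, each unshared with an FDR above 0.05. Elavl1, Hnrnpc, Igf2bp1 and Igf2bp3 had no peak in either list.

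**Figure D4:**
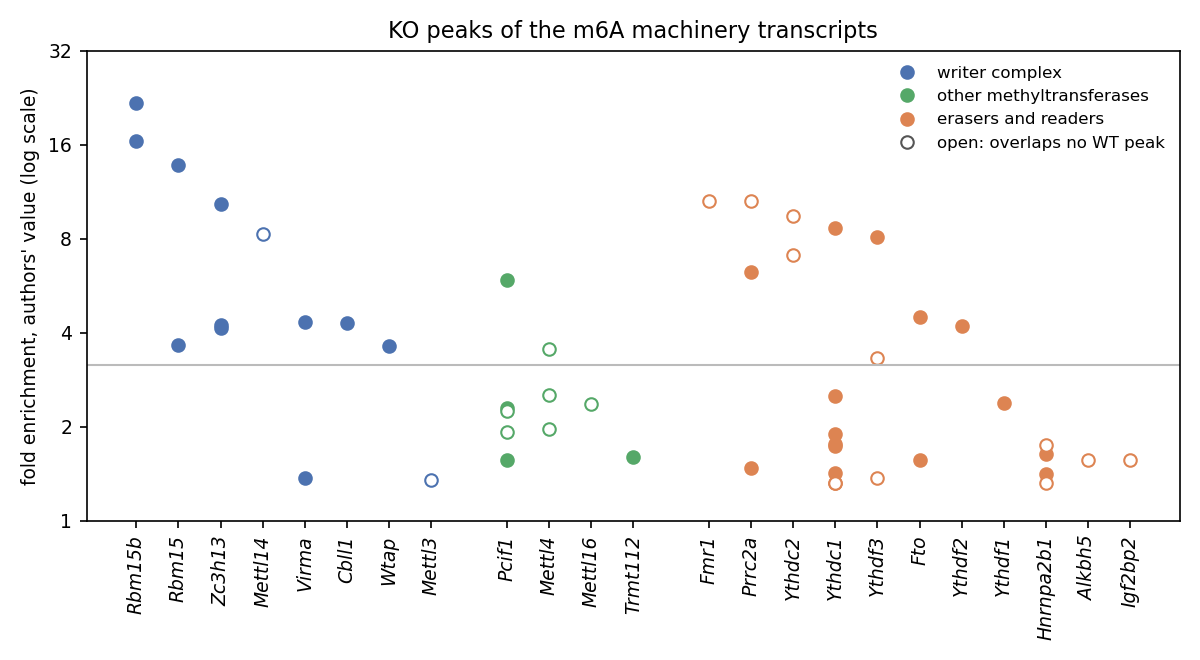
Authors' fold (log scale) of each KO peak assigned to a gene of the m6A writer complex, another m6A methyltransferase, or an eraser or reader; 1 point is 1 peak. Filled points overlap a WT peak and open points do not; the horizontal line is the median of all KO peaks (3.15), and Rbm15b is highest at 21.8.

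Gene families differed in how strong their KO peaks were and how often they lay at a WT peak. Zinc finger genes stood at the strong and shared side. The 684 peaks of 286 Zfp genes had a median fold of 4.72 (4.33 to 5.31), and 73.1% (69.6 to 76.4) were shared. The 74 peaks of the ZBTB genes, zinc finger repressors with a BTB domain, had the same median, and 81.1% were shared. An FDR under 0.05 was reached by 422 Zfp and 59 ZBTB peaks, against 64.9% of all KO peaks. The median of 4.72 is itself a stepped value, printed for 537 KO peaks. Genes of Zfp 3′ UTR peaks had a median input of 2.34 FPKM in the authors' deposited table. In the class of input level that holds this value, all KO peaks had a median fold of 3.54. Leading members were Zbtb10 at 74.4, Zfp503 at 60.1, Zbtb7b at 56.8 and Zfp27 at 42.5. The authors' deposited table has lower entries under 175 Zfp and 28 ZBTB peaks and higher ones under 19 and 4. Over all KO peaks, 20.4% had a lower entry and 8.82% a higher one. The 3′ UTR peaks of Zfp genes seldom reached the gene end: 17.3% (13.5 to 21.8) of 346 came within 50 bases, against 35.3% of all KO 3′ UTR peaks. For 42 ZBTB peaks the share was 26.2% (13.9 to 42.0), an interval that holds the share of all.

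Ribosomal protein genes stood at the opposite side. The 54 genes of cytosolic ribosomal proteins with a KO peak had 81 peaks, against 46 peaks of the family in the WT list. The whole lists hold 21031 and 16709. Of the 54 genes, 23 had a KO peak only, as did 27.1% of all KO genes. Their median fold was 1.79 (1.68 to 1.93), the lowest among the families plotted, and 39.5% (28.8 to 51.0) of the peaks were shared, although 74 of 81 had an FDR under 0.05. After Rpl7a the leading members were Rpl18 with a 5′ UTR peak of 8.86, in a stretch that also holds Sphk2, and Rps19 with a 3′ UTR peak of 7.08. Of 49 measurable 3′ UTR peaks, 31 (63.3%, 48.3 to 76.6) ended within 50 bases of the gene end. The authors' deposited table lists 43 ribosomal protein peaks as higher in KO and 3 as lower, where the shares over all KO peaks were 8.82% and 20.4%. Genes of this family have many processed copies in the genome, and reads can be shared with them.

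Other housekeeping families also had more KO than WT peaks, as the lists as a whole did (21031 and 16709). Their shares at a WT peak ranged widely. ATP synthase subunits had 18 KO peaks and 10 WT peaks, a median fold of 1.89, 44.4% (21.5 to 69.2) shared, and 11 of 12 measurable 3′ UTR peaks at the gene end. Complex I subunits of the respiratory chain had 46 and 29 peaks, a median of 2.52, 54.3% shared and 59.3% of 27 at the gene end. Vacuolar ATPase subunits, which acidify lysosomes, had 16 and 7 peaks, and 25.0% (7.27 to 52.4) of the KO peaks were shared. Proteasome subunits had 39 and 25 peaks, with 51.3% of the KO peaks shared and 69.2% of 26 at the gene end. Cytochrome c oxidase subunits (17 and 9 peaks) had 58.8% shared and 38.5% of 13 at the gene end, and mitochondrial ribosomal proteins (93 and 64 peaks) 57.0% and 40.6% of 64, near the 61.6% and 35.3% of the whole list. In the authors' deposited table the peaks over a differential peak were mostly higher in several of these families. Higher against lower, the counts were 17 and 1 for complex I and 9 and 1 for ATP synthase. They were 7 and 0 for the vacuolar ATPase and 8 and 5 for the proteasome, but 14 and 16 for mitochondrial ribosomal proteins. Among all KO peaks over entries of 1 direction, 69.8% were lower.

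In 2 further families high folds went with a share past the FDR below the 64.9% of all KO peaks. Kinesins, the microtubule motors, had 36 peaks with a median fold of 5.18 (3.47 to 7.08), of which 41.7% were shared and 17 had an FDR under 0.05. Protocadherins, neural adhesion genes that share their last exons within a cluster, had 22 peaks with a median of 8.27, all of them at least 4, and 9 with an FDR under 0.05. The same combination was described above for folds that lie on steps. Among regulators, the Dusp phosphatases, which switch off MAP kinases, had 27 peaks, 77.8% (57.7 to 91.4) of them shared, with 11 over a lower and 0 over a higher entry of the authors' deposited table. Such entries lay under 20.4% and 8.82% of all KO peaks. Solute carriers (301 peaks) and Tmem genes (203 peaks) lay near the list as a whole, with medians of 2.76 and 3.07 and 62.1% and 66.0% shared.

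**Figure D5:**
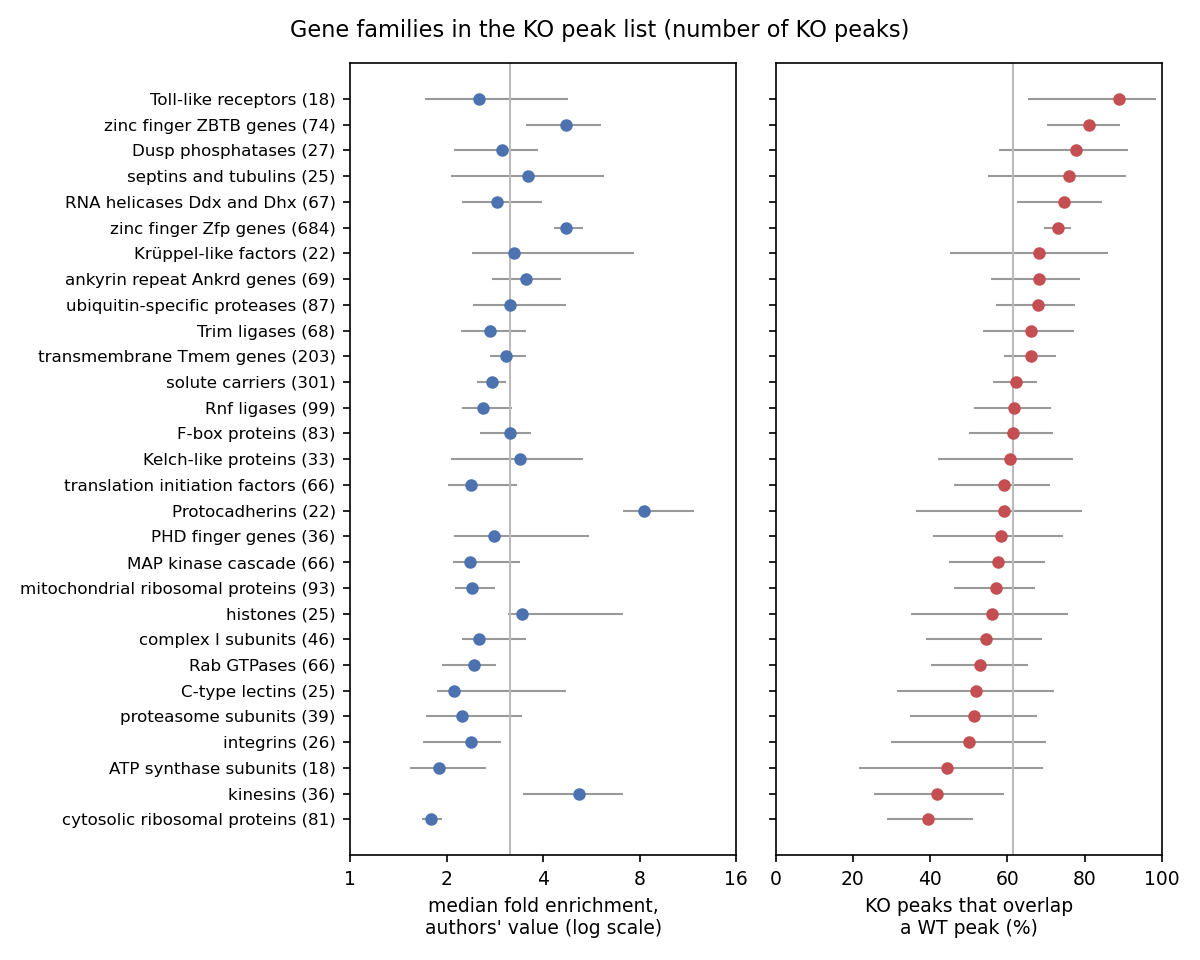
Median fold (left, authors' value, log scale) and share of KO peaks that overlap a WT peak (right, %) for gene families with at least 18 KO peaks, named by gene symbol; the number of KO peaks is in parentheses. Lines are 95% order-statistic intervals (left) and exact binomial intervals (right), and vertical lines mark all KO peaks (3.15 and 61.6%); cytosolic ribosomal proteins are lowest in both panels (1.79 and 39.5%).

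Macrophage identity genes lay near the whole list in how often their peaks were shared. Of 25 genes in the list 21 had a KO peak, with 40 peaks, 27 of them (67.5%, 50.9 to 81.4) shared, against 61.6% of all KO peaks, and 35 had an FDR under 0.05 (64.9% of all KO peaks did). The transcription factor Maf had the strongest, at 122, followed by Tlr4, the receptor for lipopolysaccharide, at 21.8 and the immunoglobulin receptor Fcgr1 at 20.6. The lineage factors Cebpa, Irf8 and Spi1 had their strongest peaks at 9.60, 2.37 and 2.19. Transcripts of very high level had weak peaks: Lyz2, the gene whose promoter drives Cre, had 1 of 1.75 with an input level of 6615 FPKM in the authors' deposited table, and Tyrobp, a signalling adaptor, had 1 of 1.50 at 1255 FPKM there. Adgre1, which encodes the marker F4/80, had an unshared 3′ UTR peak of 1.50. Peaks assigned to Csf1r lie in Pdgfrb, the one assigned to Cd68 lies in Eif4a1, and Itgam, Mertk and Csf2rb had no peak in either list.

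Toll-like receptor genes had most of their KO peaks at WT positions. The 9 receptor genes had 18 peaks, 16 of them (88.9%, 65.3 to 98.6) shared, against 61.6% of all KO peaks, with a median fold of 2.53. These peaks were long, with a median exonic length of 1058.5 bases. In the longest of 5 classes of KO peaks, from 841 bases, 87.5% were shared, close to the share of this family. After Tlr4 the strongest were Tlr9, which senses unmethylated DNA, at 9.75, Tlr3 for double-stranded RNA at 6.77, Tlr2 for lipoproteins at 5.30 and Tlr8 at 4.79. Downstream, Tab2, which links ubiquitin chains to the kinase TAK1, reached 30.7, the ubiquitin ligase Traf6 18.5 and the IκB kinase subunit Chuk 14.2, the last one unshared. Of the 50 peaks in the wider signalling list, 34 (68.0%, 53.3 to 80.5) were shared, and 22 overlapped a lower and 1 a higher differential peak in the authors' deposited table. Lower and higher entries lay under 20.4% and 8.82% of all KO peaks. Among negative regulators, the deubiquitinase Tnfaip3 (A20) had a peak of 11.2 and its partner Tnip1 one of 10.6, and 3 of the 4 peaks assigned to Cyld lie in Nod2.

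Immediate early genes, which are induced within minutes of a stimulus, had 35 peaks in 18 of 20 genes, with a median fold of 3.95 and 82.9% (66.4 to 93.4) shared. Jun led at 58.4, followed by Myc at 17.2, Fosb at 11.8 and Egr2 at 10.5, all transcription factors. The fold of Fosb is a stepped value, with a p of 0.0026 in the authors' comparison of IP and input reads. Chromatin modifiers and remodellers had 205 peaks in 56 of 62 genes, and 37.6% lay in exons outside the UTRs, against 25.6% in the list as a whole. Their strongest were the 5′ UTR peaks of Kdm3b (142) and of the remodeller Chd3 (32.5) and a 3′ UTR peak of the methyltransferase-like gene Setd5 (23.6). Crebbp, an acetyltransferase, had 1 of 21.4 and Kmt2d, a methyltransferase of histone H3, 1 of 18.4. A lower entry of the authors' deposited table lay under 62 peaks of this list and a higher one under 9. The shares over all KO peaks were 20.4% and 8.82%.

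Cytokine genes had KO peaks in 13 of 25 cases. The growth factor Csf1 had the strongest, at 28.2 and shared, and its log2 ratios in the authors' deposited table were 0.42 and 0.65. Tgfb1 reached 14.2, Lif 13.0 (unshared), Vegfa 12.7 and Tnf 4.33 (unshared), and Il6, Il1b, Il10, Cxcl10 and Ccl2 were among the 12 with no peak in either list. The peaks of Tgfb1 and Lif had p values of only 0.00065 and 0.0013 in the authors' comparison of IP and input reads. Interferon-stimulated genes had peaks in 22 of 29 cases, led by the nucleic acid sensor Zbp1 (17.7), the ubiquitin-like Isg15 (16.5) and the antiviral Ifit2 (11.1), with 58.5% of 41 peaks shared. Phagocytosis and lysosome genes had 41 peaks with a median of only 1.82. The membrane protein Lamp2 had an unshared peak of 10.6 and the scavenger receptor Msr1 one of 5.90. The fold of Lamp2 is a stepped value, with a p of 0.00078 in the authors' comparison of IP and input reads. Of the lysosomal regulators, Mitf had a shared peak of 6.16, and Tfeb had shared peaks of 7.08, in the 5′ UTR, and 4.25.

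Nuclear noncoding RNAs had few KO peaks past the FDR. Of 12 in the list 8 had a KO peak, with 15 KO peaks against 6 in WT. Of the 15, 4 had an FDR under 0.05 and 5 were shared, where the shares over all KO peaks were 64.9% and 61.6%. Their median fold was 3.94, against 3.15 over all KO peaks, and 46.7% had a fold of at least 4, against 40.5%. The imprinted antisense RNA Kcnq1ot1 had 1 of 15.3, Gas5 1 of 1.70 and the paraspeckle RNA Neat1 2 within its gene, of 1.20 and 1.19 and at nearly the same position, while Malat1 had none. Mitochondrially encoded genes, whose RNA is made outside the nucleus, had 11 peaks with a median of 2.30.

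Most genes had few KO peaks: 6318 had 1, 3017 had 2, 1363 had 3, 584 had 4 and 393 had 5 or more. With predicted names left out, the giant cytoskeletal and nuclear genes led. Stard9, a kinesin-like gene, had 14 peaks (10 of them inside the gene), the scaffold Ahnak 13, the RNA export factor Zc3h11a 11, and Ahnak2, Ahdc1, Zfp469 and Macf1 10 each. Their peaks had folds from 1.49 to 6.59 in Stard9, from 1.15 to 3.47 in Ahnak and from 2.60 to 21.3 in Zfp469. Overlapping peaks called for different transcript models inflate such counts, since 2630 KO peaks (12.5%) shared a base with another KO peak and merging left 19609 regions.

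Markers of other cell types varied in how many had a KO peak. No T or NK cell marker of 10 had a KO peak, 2 of 8 B cell, 3 of 8 erythroid, 2 of 8 mast cell and basophil, 4 of 10 stromal, 5 of 12 neutrophil and 6 of 10 dendritic cell markers did. Osteoclast markers, from a cell type that shares its M-CSF-dependent precursor with macrophages, had a KO peak in 9 of 10 cases, among them Ocstamp at 24.8 and Tnfrsf11a, the receptor RANK, at 16.6. Of these 9 osteoclast genes, 4 (Acp5, Ctsk, Mmp9 and Oscar) had no WT peak, as did 27.1% of all KO genes. The share of all expressed genes with a KO peak was not determined. Counts of members with a peak, here and for the gene lists above, therefore cannot be read as high or low. A peak does not measure cell content, and the part of other cells in the list was not tested.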

How the data were processed

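Poly(A) RNA of 4 libraries, IP and input of each genotype, was sequenced, and groups were taken from the sample titles. Per the file headers, the authors deposited for each genotype a peak list with a fold (ratio of IP over input), a p-value and log10 values of p and FDR. A further deposited table compares KO with WT as a log2 ratio of enrichment, for peaks with a p under 0.05, and a deposited table by the authors gives input FPKM for genes with such a peak. With no role stated, mm10, edgeR, StringTie, ChIPseeker, HOMER, HISAT2 and fastp are named in the submitters' processing notes, and which tool called the peaks is not given there. Each genotype's peaks rest on a single pair of libraries.

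Genes were assigned by the authors from the closest transcription start. Of 19280 KO peaks whose gene is in RefSeq (GRCm38.p6), 15823 (82.1%) overlapped that gene. Overlaps used exonic blocks and ignored strand, and starts given from 0 were raised by 1. Shares have exact binomial (Clopper-Pearson) and medians order-statistic intervals at 95%, which take peaks as independent and cover counting error or the spread among peaks only. No test was run. Overlap and interval code was tested on simulated data. The software was matplotlib 3.10.9, scipy 1.17.1, pandas 2.3.3 and numpy 2.4.6 under Python 3.11.15.

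Peaks were named by rule: the m6A enzymes and readers, the 10 of highest fold or lowest p in the whole list, by part, unshared and in genes without a WT peak, the 10 genes with most peaks, and 3 members per list or family, with predicted (Gm), Rik and pseudogene names left out and 1 peak per gene at an FDR under 0.05. Members, lists and families were chosen with earlier results of these data known, and further examples were taken with their values in view. The alternatives comprised a fold of 4, a p of 1e-10, an FDR of 0.05, peaks inside the assigned gene and other overlaps, and, added after seeing the data, stepped folds, other distances from the gene end and the highest level class. Sequence motifs inside peaks were not analysed here, and some genes taken by the rule are not reported here.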

Additional observations from a re-analysis of the deposited data

How the results depend on the processing

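No paired analysis was possible because each group had 1 library and the labels give no replicate numbers. The share of KO peaks in 3′ UTRs was 59.7% at a fold of at least 4, 75.6% at a p of at most 1e-10, 69.8% at an FDR under 0.05, 60.2% inside the assigned gene and 67.5% without stepped folds. That in other exons was 28.0%, 14.0%, 20.1%, 26.8% and 22.9% in the same order, and that in 5′ UTRs was 12.3% at the fold threshold, 13.0% inside the gene and 9.53% without steps. Median folds were 7.56, 4.68, 3.15, 3.05 and 2.56 in 3′ UTRs and 7.08, 5.21, 3.64, 3.25 and 2.37 in other exons in that order, and in 5′ UTRs 7.62 at the fold threshold, 5.62 at the p threshold and 2.76 without steps. The rise at a fold threshold follows from its construction, and the cause of the other shifts was not tested.

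With both lists thresholded alike, the share of KO peaks at a WT peak was 60.9% by fold, 79.8% by p and 69.4% by FDR. It was 59.7% without steps, 41.5% with 50% of both peaks covered and 62.5% with whole extents. Newly marked genes fell to 915 by p. Genes with 5 or more peaks numbered 23 by fold, 9 by p, 97 by FDR and 250 inside the assigned gene, where fewer peaks are counted. The share lower in the authors' deposited table was 83.7% by fold, 68.0% by FDR and 71.9% inside the gene. The share of 5′ UTR peaks at the start was 85.2% by fold, 84.6% by p, 79.0% by FDR and 72.5% without steps. The share of unshared 3′ UTR peaks at the gene end was 47.7%, 56.8% and 60.9% for 20, 100 and 200 bases, 66.9% at a p of at most 1e-10 and 65.2% in the highest level class. Shared peaks stood at 35.8% and 38.3% for 100 and 200 bases and at 51.5% in the highest level class. Of 264 alternative medians of lists and families, 156 stayed within and 108 left the main interval. Of families and lists with at least 5 peaks, 33 of 55 kept their side of the list's median by fold, 38 of 54 by p, 52 of 59 by FDR and 58 of 63 inside the gene. Depth limits all counts of unshared peaks, and it is unknown. The motif search planned for peaks was not run, for want of a genome here.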

Other observations

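KO peaks named for small RNA genes mostly lay in the exons of larger genes. Of 39 KO peaks assigned to small nucleolar RNA genes, 32 did not overlap the named gene, 32 had an FDR under 0.05 and 17 overlapped a higher differential peak in the authors' deposited table, with 0 over a lower one. Over all KO peaks the shares were 64.9% for the FDR, 8.82% for a higher and 20.4% for a lower entry. Their leading entries were a peak of 23.6 named for Snora31 in Tpt1, an abundant translationally controlled protein gene, 1 of 13.4 named for Snord14e in the chaperone gene Hspa8 and 1 of 9.13 named for Snora34 in Kansl2. Of 297 peaks named for microRNA entries, 261 did not overlap the named gene, among them 1 of 130 in Pdgfra. Ribosomal protein pseudogenes had 60 peaks with a median fold of 3.67, 75.0% of them in exons outside UTRs, where reads from the parent genes cannot be told apart.

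Predicted Gm genes had 2633 KO peaks with 42.9% in other exons and a median fold of 3.87, and Rik clones had 718 peaks with a median of 4.78.

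By chromosome, KO peaks ran from 1.20 times the WT number on chromosome 8 to 1.36 times on X. Outside this range were the mitochondrial genome, with 11 KO and 15 WT peaks, and the Y chromosome, with 4 and 1. The median fold lay between 2.83 on chromosome 11 and 3.54 on chromosomes 12 and 13 among the autosomes.

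Other gene groups showed strong single peaks. The splicing factors had 119 KO peaks with a median of 2.47, led by Tra2a at 70.8, Hnrnpa3 at 40.1 and Ptbp1 at 21.3, the last in a stretch that also holds E130317F20Rik. Autophagy genes were led by Atg13 (15.6) and Atg2a (14.0), and p53 targets by the receptor Eda2r (15.3) and the nuclease Aen (11.8), while a peak of 16.5 assigned to Zmat3 lies in 4930429B21Rik. The peak of Eda2r had a p of only 0.00032 in the authors' comparison of IP and input reads. Cd80, a costimulatory ligand for T cells, had a shared 3′ UTR peak of 56.7, at a log2 ratio of 1.55 in the authors' deposited table, and Ciita, the master regulator of MHC class II, an exon peak of 12.4. Histone genes, whose main transcripts lack a poly(A) tail, had 25 KO peaks with a median of 3.44, led by H3c15 at 29.5 and H2ax at 11.6. Rps6kb1, the S6 kinase downstream of mTOR, had a shared 3′ UTR peak of 33.0.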
